A study of Mus musculus with 16 samples.

Results

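The 81 genes described here encode the glycosyltransferases that build mucin-type O-glycans and Lewis-type glycan ends, in the colon of adult mice born vaginally or by cesarean section and given water or dextran sulfate sodium. They were taken by symbol from the 39328 genes of the table, as all identifiers whose mouse symbol begins with Galnt, Gcnt, C1galt1, B3gnt, B3galt, B4galt, B4galnt, Fut, St3gal, St6gal or St8sia followed by letters or digits only. The rule used no measured value. It gave 80 symbols, of which 78 name enzymes or their chaperone and 2 name antisense transcripts (Galnt6os and St8sia3os), and St6galnac2 was present under 2 identifiers. The rule also took relatives that act on N-glycans, glycolipids or proteoglycans, such as Fut8, B4galnt1 and B4galt7.

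Colon RNA was sequenced from wild-type ICR mice, an outbred stock, in 4 groups of 4 libraries. CON_VD mice were born by vaginal delivery (VD) and CON_CS mice by cesarean section (CS), and both drank normal water. DSS_VD and DSS_CS mice had the same births and drank water with 3% dextran sulfate sodium (DSS), which damages the gut epithelium and causes colitis, over 8 days. No exact age, litter or animal number is given in the labels, and separate mice behind the 4 libraries of a group are not stated, so a p-value here speaks of the spread between libraries.

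Mucin-type O-glycosylation starts in the Golgi when a polypeptide GalNAc-transferase (Galnt) puts N-acetylgalactosamine on serine or threonine. Core enzymes add the next sugars, B3gnt, B3galt and B4galt enzymes extend the chain, and fucosyl- and sialyltransferases cap it. In the colon these glycans coat Muc2, the gel-forming mucin of goblet cells, and the membrane mucins, and they keep bacteria off the epithelium and feed some of them. Fut2 makes the fucosylated ends that gut bacteria can use.

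Promoter sequences were available for 58 of the 81 members, as 78 windows that run from 250 bases before to 50 bases after a start site, from RefSeq on GRCm38.p6. The windows of 4 genes are shown because their results stand apart below: B3gnt7 had the highest mean of the members in CON_VD, B3gnt5 was the only member called between births in water, B4galt1 rose under DSS in VD mice and was not called in CS mice, and Galnt16 was higher in DSS_CS. Galnt16 has 3 windows, of which the one with a motif match is printed, and the others held no match. Capitals mark a match to one of the motifs searched, on either strand: TATAAA (the TATA box), TTTATGG (a CDX-type site), CAAAGTCC (an HNF4-type site) and TGANTCA (an AP-1-type site), none of which overlapped another in these windows.
B3gnt7, chr1:86302971-86303270, plus strand: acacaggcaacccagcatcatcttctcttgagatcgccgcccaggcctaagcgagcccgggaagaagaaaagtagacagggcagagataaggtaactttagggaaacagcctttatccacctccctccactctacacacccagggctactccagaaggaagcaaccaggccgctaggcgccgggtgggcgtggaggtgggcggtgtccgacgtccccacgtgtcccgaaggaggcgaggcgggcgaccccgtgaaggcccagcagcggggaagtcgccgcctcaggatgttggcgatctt
B3gnt5, chr16:19759984-19760283, plus strand: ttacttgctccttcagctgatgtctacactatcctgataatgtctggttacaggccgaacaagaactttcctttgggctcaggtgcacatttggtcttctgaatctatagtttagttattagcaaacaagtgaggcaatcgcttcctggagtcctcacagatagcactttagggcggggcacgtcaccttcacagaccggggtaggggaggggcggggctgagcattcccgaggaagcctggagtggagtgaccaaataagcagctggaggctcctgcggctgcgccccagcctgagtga
B4galt1, chr4:40853935-40854234, minus strand: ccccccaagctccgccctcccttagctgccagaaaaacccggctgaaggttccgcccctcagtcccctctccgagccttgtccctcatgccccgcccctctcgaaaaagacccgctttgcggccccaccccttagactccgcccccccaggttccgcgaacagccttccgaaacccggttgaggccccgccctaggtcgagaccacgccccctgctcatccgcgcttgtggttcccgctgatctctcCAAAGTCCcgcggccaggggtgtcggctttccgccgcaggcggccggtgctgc
Galnt16, chr12:80518552-80518851, plus strand: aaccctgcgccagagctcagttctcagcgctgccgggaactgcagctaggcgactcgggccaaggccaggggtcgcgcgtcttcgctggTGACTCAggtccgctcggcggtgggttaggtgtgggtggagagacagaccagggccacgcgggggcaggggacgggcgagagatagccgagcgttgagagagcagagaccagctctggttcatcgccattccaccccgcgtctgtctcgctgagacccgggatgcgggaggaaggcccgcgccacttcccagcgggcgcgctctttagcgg
In the B4galt1 window CAAAGTCC began 3 bases before the start site and ran across it. In the Galnt16 window TGACTCA began 161 bases before the start site. Of the 78 member windows, 3 held CAAAGTCC (B4galt1, B3gnt3 and Gcnt4), against 1.42% of all 32851 windows. TGANTCA was found in 4 of the 78 (Galnt15, Galnt16, Gcnt4 and St6gal1), against 7.81% of all windows. TATAAA was found in 2 of the 78 (Gcnt1 and Galntl6), against 13.6%, and TTTATGG in 1 (Galnt9), against 2.75%. The median GC content was 61.3% in the members' windows and 52.7% in all windows. A match is a description of these letters, not evidence of binding.

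Levels are FPKM, the fragments of a gene divided by transcript length and by the mapped total, so they can be compared between genes, and the read depth is unknown. Differences are on log2(FPKM + 1) with their SE, and means are given with their SD over 4 libraries. A gene was called when its limma p, adjusted by Benjamini-Hochberg over all genes tested in that comparison, was under 0.05. Of the 81 members, 63 reached a mean of 1 FPKM in at least 1 group and 34 reached 10. In each library the members together held 0.170 to 0.371% of all FPKM. A filter of FPKM of at least 1 in at least 4 of the fitted libraries left 52 to 59 members tested per comparison, and 22 members were tested in none. Among these 22 were B3gnt6, the synthase of core 3, with group means of 0.0465 to 0.222 FPKM, and St6galnac1, which makes sialyl-Tn, with 0.0450 to 1.15. They also held the fucosyltransferases Fut1, Fut7 and Fut10, the initiators Galnt9, Galnt13, Galnt14, Galnt17 and Galntl6, and the St8sia genes other than St8sia4 and St8sia5. St8sia3os was listed at 0 in every library.

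Library totals were 280135 to 343423 FPKM. Pearson correlations of log2(FPKM + 1) over all genes were 0.971 to 0.989 between libraries of a group. Pbsn, a secretory gene of the prostate, was at 185 FPKM in CON_CS replicate 1, 128 in DSS_CS replicate 3 and 1355 in DSS_CS replicate 4, and at most 0.526 in the other 13 libraries. Colon markers were present in every group: none of 10 pan-epithelial or 12 goblet cell genes was listed at 0. The mean log2(FPKM + 1) of the pan-epithelial genes (Epcam, Cdh1, keratins and others) ranged over libraries from 8.27 to 8.43 in CON_VD, 8.35 to 8.45 in CON_CS, 7.32 to 8.37 in DSS_VD and 5.70 to 7.30 in DSS_CS. Goblet cell genes ranged from 7.46 to 7.94, 7.0 to 7.39, 5.18 to 6.39 and 3.32 to 4.61 in the same order. Neutrophil and monocyte genes ranged from 1.86 to 2.26, 1.92 to 1.99, 4.48 to 5.70 and 5.64 to 6.38, and S100a8, S100a9, Cxcr2, Retnlg and Mmp8 were listed at 0 in 3 to 6 libraries. Fibroblast and matrix genes ranged from 3.88 to 4.06, 4.04 to 4.37, 5.0 to 5.91 and 6.34 to 6.70. The part of cell composition in the members' changes was not tested. In whole colon RNA, fewer cells of a type and less RNA per cell cannot be told apart.

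**Figure D1:**
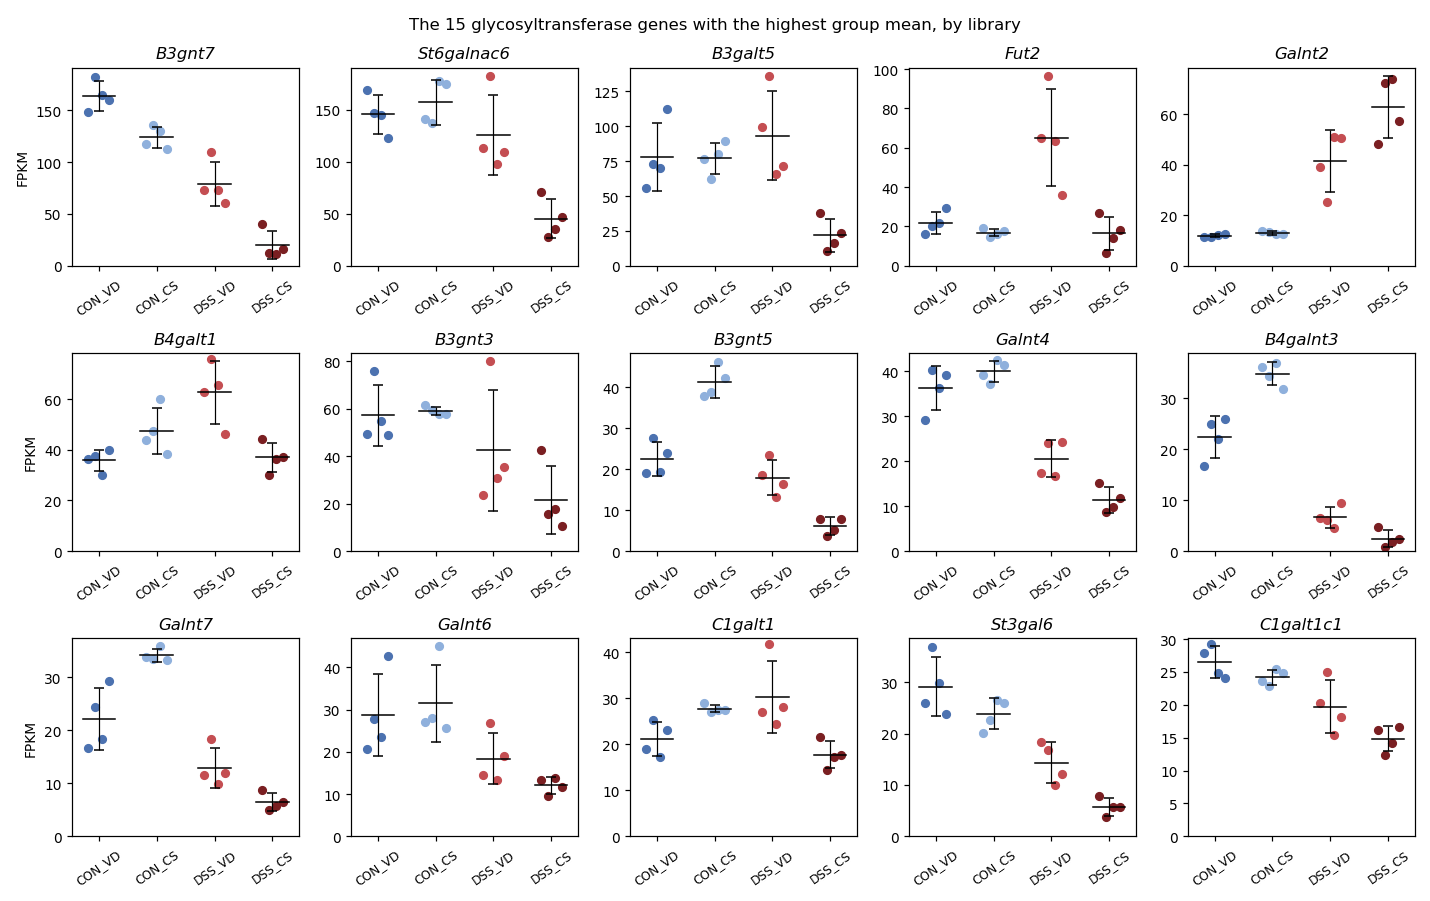
FPKM of the 15 members with the highest group mean. Points are libraries, lines are means and bars SD, with 4 libraries per group. Fut2 was highest in DSS_VD and Galnt2 in DSS_CS, while B3gnt7, Galnt4 and B4galnt3 were lower in both DSS groups than in water.

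DSS moved the members in both directions in mice of either birth. In VD mice 16 of 52 tested members rose (30.8%, against 24% of all 13933 genes tested) and 15 fell (28.8%, against 17%). In CS mice 22 of 56 rose (39.3%, against 34.4% of 14372) and 26 fell (46.4%, against 25.9%). The group ranges of 28 members did not overlap in VD mice (53.8%, against 38.6% of genes) and those of 46 in CS mice (82.1%, against 57%). The median member difference was -0.07 in VD mice and -0.34 in CS mice, against 0.06 over all genes in each. With median-of-ratios scaling the all-gene median in CS mice went from 0.06 to -0.06, and the members numbered 19 risen and 29 fallen. The VD and CS responses come from separate libraries. Of the 52 members tested in both, 13 rose in both, 14 fell in both and 0 were called in opposite directions. A further 12 fell and 5 rose with a call in CS mice alone, 3 rose and 1 fell with a call in VD mice alone, and 4 (B3galt4, B3galt6, B4galnt2 and B4galt3) were called in neither. The member that fell in VD mice alone was 1 of the St6galnac2 identifiers, and the other identifier is among those that fell in both. A call in 1 birth group and not in the other is not a tested difference; the interaction is given further on.

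**Figure D2:**
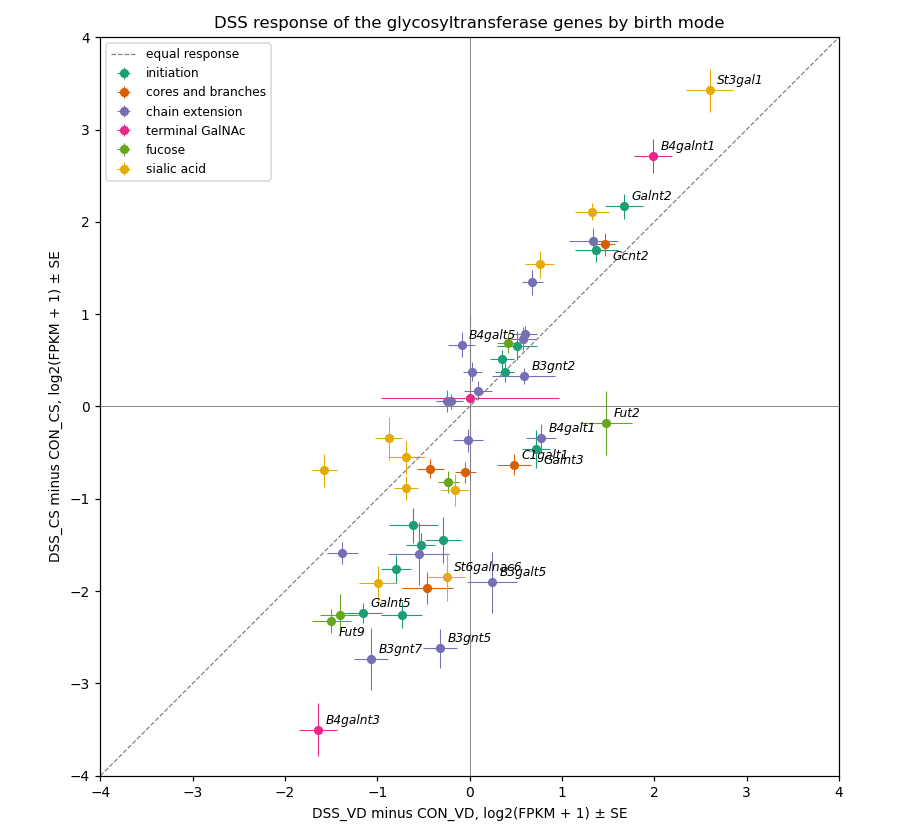
DSS response in VD mice (x axis) against CS mice (y axis) as differences of log2(FPKM + 1) with SE, for the 52 members tested in both. Points below the dashed line had the lower response, more negative or less positive, in CS mice. St3gal1 (2.6 and 3.42) and B4galnt3 (-1.64 and -3.50) lie at the ends, and Fut2 (1.48 and -0.18) lies to the right.

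Among the initiating enzymes Galnt2 rose with DSS in both births while Galnt4, Galnt5, Galnt7 and Galnt10 fell. Galnt2, a broadly expressed initiator (ENSMUSG00000089704, chromosome 8, 124231391 to 124345724, GRCm38 here and below), was at 11.2, 11.4, 12.3 and 12.5 FPKM in CON_VD and at 38.9, 25.1, 50.8 and 50.6 in DSS_VD. In CS mice Galnt2 was at 13.8, 13.4, 12.5 and 12.4 in water and at 48.1, 72.3, 73.7 and 57.4 under DSS. Every DSS library was above every water library. Galnt2 exons overlap Gm20388 on the same strand, so reads may be shared. The rise was 1.67 ± 0.21 in VD mice (adjusted p = 0.0003) and 2.17 ± 0.14 in CS mice (adjusted p = 2.84e-06).

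Galnt4 (ENSMUSG00000090035, chromosome 10, 99108159 to 99113247) moved the other way; its exons overlap Poc1b on the same strand, so reads may be shared. It was at 29.2, 40.2, 36.3 and 39.1 FPKM in CON_VD and at 17.3, 24.0, 16.6 and 24.3 in DSS_VD. CON_CS libraries held 39.2, 37.0, 42.4 and 41.3 and DSS_CS libraries 15.1, 8.68, 9.73 and 11.7. The groups did not overlap in either birth. Both differences were called, -0.80 ± 0.16 in VD mice (adjusted p = 0.0039) and -1.76 ± 0.15 in CS mice (adjusted p = 1.49e-05).

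Galnt7 (ENSMUSG00000031608, chromosome 8, 57523828 to 57653032), which prefers peptides that already carry GalNAc, was at 16.6, 24.4, 18.3 and 29.3 FPKM in CON_VD and at 11.5, 18.3, 9.83 and 11.9 in DSS_VD. In CS mice Galnt7 was at 33.8, 33.5, 35.8 and 33.3 in water and at 8.80, 5.03, 5.63 and 6.48 under DSS. The VD groups overlapped and the CS groups did not. It fell in both, with differences of -0.74 ± 0.22 (adjusted p = 0.0252) and -2.25 ± 0.14 (adjusted p = 2.67e-06). The VD difference of Galnt7 missed the threshold under 6 of 15 alternative fits. Galnt6 (ENSMUSG00000037280, chromosome 15, 100691813 to 100729376) was at 20.8, 27.7, 23.5 and 42.6 in CON_VD and 14.4, 26.8, 13.3 and 19.0 in DSS_VD. In CS mice Galnt6 was at 27.1, 28, 45.1 and 25.7 in water and 13.3, 9.52, 13.8 and 11.6 under DSS, a difference of -1.29 ± 0.19 (adjusted p = 0.000351). In VD mice the difference was -0.61 ± 0.26 (adjusted p = 0.0942).

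Of the other initiators, Galnt10 and Galnt5 fell in both births and Galnt12, a colon-expressed initiator, in CS mice, from 20.4 ± 0.994 to 7.29 ± 3.19 FPKM. The Galnt10 fall in VD mice missed the threshold under 5 of 15 alternative fits. Galnt1 and Galnt18 rose in both, Galnt18 from 1.30 ± 0.111 to 5.23 ± 1.95 in VD and from 1.40 ± 0.314 to 6.82 ± 1.22 in CS mice. Galnt11, Galnt15 and Galnt16 rose in CS mice. Galnt3 rose in VD mice (9.15 ± 1.84 to 15.7 ± 2.52, adjusted p = 0.00463), and in CS mice went from 9.61 ± 0.730 to 6.99 ± 2.43 (adjusted p = 0.0836). In all, 4 of 12 tested initiators rose and 4 fell in VD mice (24% and 17% of all genes). In CS mice 6 of 13 rose and 6 fell (34.4% and 25.9% of all genes). The summed FPKM of the Galnt genes had means of 169, 199, 170 and 153 in CON_VD, CON_CS, DSS_VD and DSS_CS. Galnt2 made up a mean 7.09%, 6.57%, 24.5% and 41.0% of that sum and Galnt4 21.4%, 20.1%, 12.0% and 7.41%. The Galnt2 share was 14.2 to 31.2% in DSS_VD libraries and 31.7 to 49.6% in DSS_CS libraries.

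**Figure D3:**
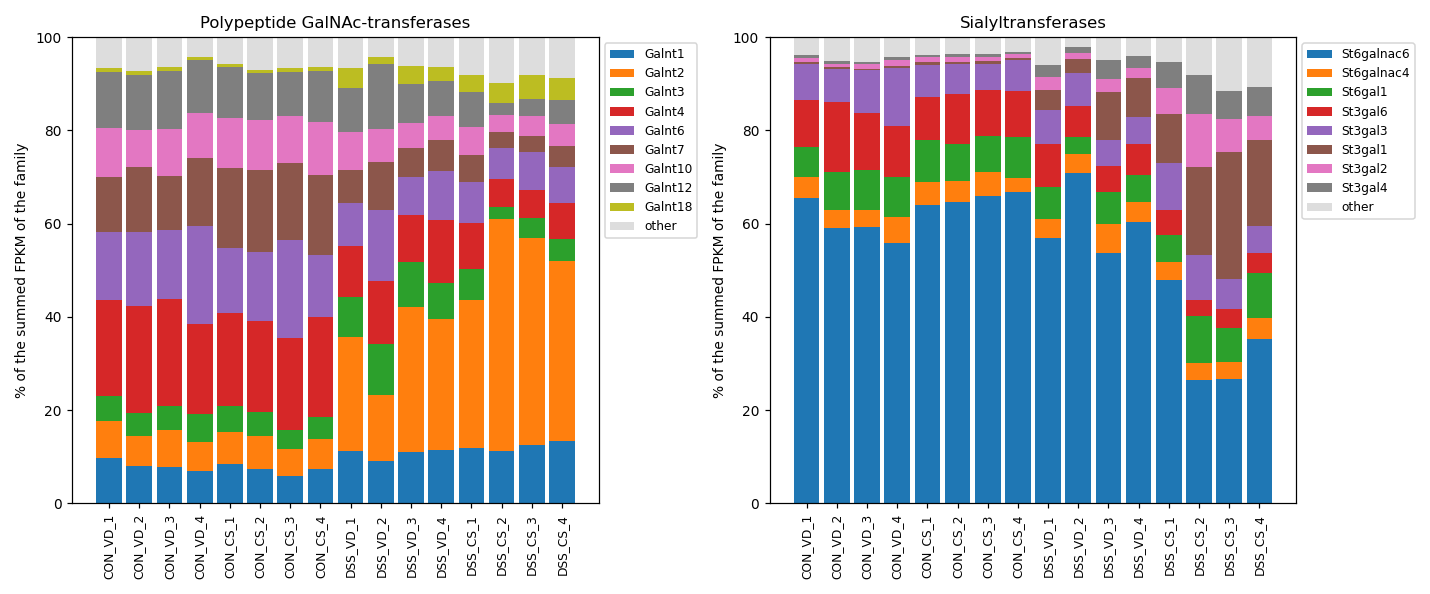
Share of the summed FPKM of the Galnt genes (left) and of the sialyltransferase genes (right) held by each gene, as a bar per library. Galnt2 rises from at most 7.92% in water libraries to as much as 49.6% under DSS, and St3gal1 from at most 0.711% to as much as 27.3%.

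Of the 6 core and branch enzymes tested in CS mice 4 fell, and Gcnt2 and Gcnt4 rose. Over all genes tested in CS mice, 25.9% fell and 34.4% rose. C1galt1, the core 1 synthase (ENSMUSG00000042460, chromosome 6, 7844842 to 7875687), was at 19.0, 25.2, 17.3 and 23.2 FPKM in CON_VD and at 27.0, 41.7, 24.3 and 28.2 in DSS_VD. CON_CS libraries held C1galt1 at 29.0, 27.0, 27.5 and 27.6, and DSS_CS libraries at 21.6, 14.4, 17.3 and 17.6. The CS groups did not overlap, and C1galt1 fell with a difference of -0.63 ± 0.11 (adjusted p = 0.00122), while the VD difference was 0.48 ± 0.18 (adjusted p = 0.0637).

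C1galt1c1 (Cosmc, ENSMUSG00000048970, chromosome X, 38630785 to 38635087), the chaperone that C1galt1 needs, was at 27.8, 29.3, 24.9 and 24.1 FPKM in CON_VD and 20.2, 24.9, 15.4 and 18.1 in DSS_VD. In CS mice C1galt1c1 was at 23.6, 22.9, 25.4 and 24.9 in water and 16.2, 12.4, 14.2 and 16.7 under DSS. The VD groups overlapped and the CS groups did not. It fell in both, with differences of -0.43 ± 0.15 (adjusted p = 0.0447) and -0.67 ± 0.10 (adjusted p = 0.000406). The VD difference missed the threshold under 8 of 15 alternative fits.

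Gcnt3, the mucin-type core 2 and core 4 branching enzyme, fell in CS mice from 17.7 ± 3.11 to 3.82 ± 0.971 FPKM (-1.96 ± 0.17, adjusted p = 1.75e-05), and in VD mice went from 14.7 ± 4.33 to 10.5 ± 3.89 (-0.46 ± 0.28, adjusted p = 0.222). Gcnt1, another core 2 enzyme, fell in CS mice from 11.2 ± 0.372 to 6.51 ± 1.21. Gcnt2, which branches lactosamine chains into the I antigen, rose in both, from 4.07 ± 0.346 to 13 ± 1.45 in VD and from 4.44 ± 0.747 to 17.4 ± 2.15 in CS mice. Gcnt2 was 5.31% of the summed core and branch FPKM in CON_VD and 28.3% in DSS_CS, and Gcnt3 19.0% and 6.11%. Gcnt4 rose in CS mice, from 0.285 ± 0.0484 to 1.43 ± 0.233.

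Among the chain-extending enzymes B3gnt7, the member with the highest mean in CON_VD, fell in both births. B3gnt7 (ENSMUSG00000079445, chromosome 1, 86302832 to 86307305), which extends lactosamine chains, was at 148, 182, 164 and 159.9 FPKM in CON_VD and 72.7, 110.1, 73.1 and 60.6 in DSS_VD. In CS mice B3gnt7 was at 118, 135, 129.6 and 113 in water and 39.9, 12.5, 11.8 and 16.5 under DSS. No water library overlapped a DSS library of its birth group. It fell, with differences of -1.07 ± 0.18 (adjusted p = 0.00143) and -2.73 ± 0.33 (adjusted p = 0.000116), and its share of the summed chain-extension FPKM was 38.2% in CON_VD, 30.2% in CON_CS, 21.1% in DSS_VD and 9.91% in DSS_CS.

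B3galt5 (ENSMUSG00000074892, chromosome 16, 96235801 to 96319859) makes the type 1 chains on which Lewis a and b are built. It was at 55.6, 72.8, 70.4 and 113 FPKM in CON_VD and 99.7, 136, 65.6 and 71.8 in DSS_VD. In CS mice B3galt5 was at 76.6, 62.5, 80.3 and 89.3 in water and 37.7, 10.3, 16.3 and 23.2 under DSS. The VD groups overlapped (0.24 ± 0.27, adjusted p = 0.506), and the CS groups did not (-1.91 ± 0.33, adjusted p = 0.000968).

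B4galt1 (ENSMUSG00000028413, chromosome 4, 40804602 to 40854005), a main galactosyltransferase of N- and O-glycans, was at 36.2, 37.4, 30.0 and 39.7 FPKM in CON_VD and 62.8, 76.0, 65.5 and 46.3 in DSS_VD. CON_CS libraries held B4galt1 at 43.8, 47.4, 59.9 and 38.5, and DSS_CS libraries at 44.4, 30.2, 36.5 and 37.0. All DSS_VD libraries were above the CON_VD libraries, and the CS groups overlapped. B4galt1 rose in VD mice by 0.78 ± 0.16 (adjusted p = 0.00453) and differed by -0.34 ± 0.16 in CS mice (adjusted p = 0.0881).

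B3gnt5 (ENSMUSG00000022686, chromosome 16, 19760208 to 19772753), which starts lacto-series glycolipids, was at 19.0, 27.6, 19.3 and 24.0 FPKM in CON_VD and 18.6, 23.6, 13.3 and 16.3 in DSS_VD. In CS mice B3gnt5 was at 37.7, 38.8, 46.2 and 42.3 in water and 7.86, 3.63, 5.02 and 7.93 under DSS. The CS groups lay far apart and the VD groups overlapped. The difference was -2.62 ± 0.21 in CS mice (adjusted p = 9.59e-06) and -0.32 ± 0.19 in VD mice (adjusted p = 0.199).

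B3gnt3 (ENSMUSG00000031803, chromosome 8, 71690756 to 71701789), which extends core 1, was at 49.4, 76.0, 54.8 and 48.8 FPKM in CON_VD and 23.8, 80.0, 30.8 and 35.5 in DSS_VD. In CS mice B3gnt3 was at 61.4, 59.5, 58.0 and 57.6 in water and 42.6, 15.4, 17.9 and 10.6 under DSS, a difference of -1.59 ± 0.34 (adjusted p = 0.00336). DSS_VD replicate 2 was above all water libraries, and the VD difference was -0.55 ± 0.33 (adjusted p = 0.218). With the 2 DSS_CS and 1 CON_CS libraries that held Pbsn left out, the CS difference was -1.15 (adjusted p = 0.0660).

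Of the other chain-extension members, B4galt2, B4galt6, B3gnt8 and B3gnt9 rose in both births, B3gnt9 from 2.36 ± 0.672 to 7.75 ± 2.71 FPKM in VD and from 2.38 ± 0.225 to 10.8 ± 2.23 in CS mice. B3gnt2, the main polylactosamine synthase, B4galt5, a lactosylceramide synthase, and B4galt7, which acts on the proteoglycan linker, rose in CS mice. B4galt4 fell in both, from 12.5 ± 3.11 to 4.14 ± 0.654 in VD and from 10.8 ± 0.511 to 2.96 ± 0.639 in CS mice, and B3gntl1 fell in CS mice. The B3gntl1 fall missed the threshold under 8 of 15 alternative fits. In all 5 of 17 rose and 2 fell in VD mice (24% and 17% of all genes). In CS mice 7 of 17 rose and 6 fell (34.4% and 25.9% of all genes).

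Of the 4 terminal GalNAc enzymes, B4galnt3 fell and B4galnt1 rose with DSS in both births, and B4galnt2 was called in no comparison. B4galnt4 had group means of 0.548 to 1.17 FPKM, was tested only between births under DSS and in the interaction, and was called in neither. B4galnt3 (ENSMUSG00000041372, chromosome 6, 120203073 to 120294559), which makes LacdiNAc, was at 16.7, 24.9, 22.1 and 26.0 FPKM in CON_VD and 6.49, 6.19, 4.43 and 9.36 in DSS_VD. In CS mice B4galnt3 was at 36.1, 34.4, 37.0 and 31.9 in water and 4.67, 0.861, 1.82 and 2.34 under DSS. Neither birth's groups overlapped, with differences of -1.64 ± 0.21 (adjusted p = 0.000315) and -3.50 ± 0.29 (adjusted p = 1.1e-05).

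B4galnt1, the GM2 and GD2 ganglioside synthase, rose from 3.66 ± 1.30 to 17.1 ± 2.96 FPKM in VD mice (1.99 ± 0.21, adjusted p = 0.000138) and from 1.87 ± 0.255 to 18.3 ± 5.05 in CS mice (2.71 ± 0.18, adjusted p = 3.41e-06). B4galnt2 (ENSMUSG00000013418, chromosome 11, 95865943 to 95914891), which makes the Sda antigen, was at 3.97, 0.543, 14.8 and 26.8 FPKM in CON_VD and 0.669, 16, 9.93 and 10.00 in DSS_VD. In CS mice B4galnt2 was at 0.439, 14.0, 8.59 and 0.299 in water and 5.23, 0.312, 6.59 and 4.65 under DSS. Every group held low and high libraries, with 0.543 beside 26.8 in CON_VD, 0.299 beside 14.0 in CON_CS, 0.669 beside 16 in DSS_VD and 0.312 beside 6.59 in DSS_CS. B4galnt2 was called by limma in no comparison (adjusted p of 0.518 to 0.997).

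**Figure D4:**
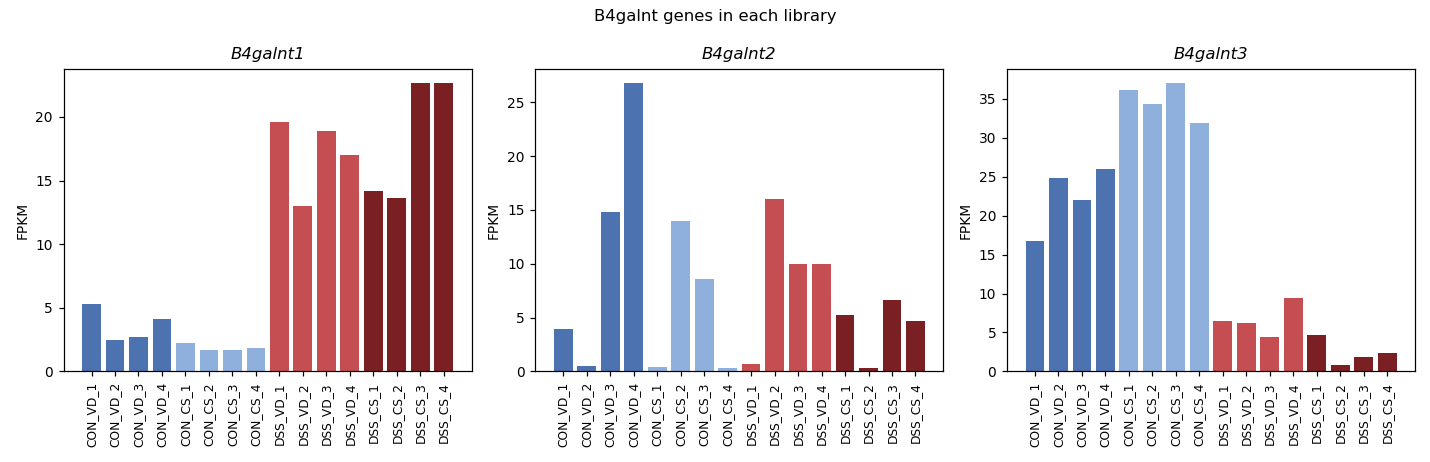
FPKM of B4galnt1, B4galnt2 and B4galnt3 in each of the 16 libraries as bars from 0, coloured by group. B4galnt1 is higher in the DSS libraries and B4galnt3 lower, and B4galnt2 ranges from 0.299 to 26.8 FPKM within the water groups.

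Fut2, Fut8 and Fut9 had a more negative or less positive response to DSS in CS mice by the interaction test. Fut2 rose in VD mice. Fut2 (ENSMUSG00000055978, chromosome 7, 45648591 to 45666394) was at 16.2, 20.3, 21.7 and 29.5 FPKM in CON_VD and 65.1, 96.2, 63.4 and 36.0 in DSS_VD. In CS mice Fut2 was at 19.1, 14.8, 15.9 and 17.7 in water and 26.9, 6.44, 14.0 and 18.3 under DSS. All DSS_VD libraries were above all other libraries, and the CS groups overlapped. Fut2 rose by 1.48 ± 0.28 in VD mice (adjusted p = 0.00282) and differed by -0.18 ± 0.35 in CS mice (adjusted p = 0.674), an interaction of -1.66 ± 0.48 (adjusted p = 0.0361). That interaction missed the threshold under 14 of 23 alternatives, where its adjusted p ranged up to 0.111. The Fut8 interaction missed the threshold under 11 of 23 alternatives and the Fut9 interaction under 18 of 22. In DSS_VD Fut2 was 70.9% of the summed Fut FPKM, against 33.6% in CON_VD, 28.1% in CON_CS and 44.9% in DSS_CS.

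Fut4 and Fut9, which make Lewis x, fell in both births. Fut4 went from 24.3 ± 4.67 to 8.70 ± 2.77 FPKM in VD mice (-1.41 ± 0.21, adjusted p = 0.000795) and from 22.2 ± 5.01 to 3.90 ± 1.29 in CS mice (-2.26 ± 0.23, adjusted p = 3.54e-05). Fut9 went from 3.41 ± 1.36 to 0.518 ± 0.210 and from 4.67 ± 1.02 to 0.120 ± 0.0498. Fut8, the core fucosyltransferase of N-glycans, fell in CS mice from 12.0 ± 1.43 to 6.37 ± 1.01, and Fut11 rose in both.

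With DSS, 3 of 10 tested sialyltransferase identifiers rose and 5 fell in VD mice (24% and 17% of all genes). In CS mice 5 of 12 rose and 6 fell (34.4% and 25.9% of all genes). Both St6galnac2 identifiers, which share exons, are counted in these numbers, and both were among the 5 that fell in VD mice. St6galnac6 (ENSMUSG00000026811, chromosome 2, 32599709 to 32620806), which adds sialic acid to GalNAc or GlcNAc and takes part in disialyl Lewis a and ganglioside synthesis, was at 169, 147, 145 and 123 FPKM in CON_VD and 113, 183, 97.8 and 109 in DSS_VD. In CS mice St6galnac6 was at 141, 137, 178 and 175 in water and 70.7, 28, 35.7 and 47.1 under DSS. The VD groups overlapped (-0.25 ± 0.20, adjusted p = 0.361), and the CS groups did not (-1.85 ± 0.26, adjusted p = 0.000257). St6galnac6 held 59.96% of the summed sialyltransferase FPKM in CON_VD, 65.4% in CON_CS, 60.5% in DSS_VD and 34.1% in DSS_CS.

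St3gal6 (ENSMUSG00000022747, chromosome 16, 58468125 to 58524243), which sialylates type 2 chains, was at 25.9, 37.0, 29.9 and 23.8 FPKM in CON_VD and 18.4, 16.8, 10.0 and 12.2 in DSS_VD. In CS mice St3gal6 was at 20.2, 22.7, 26.6 and 26.0 in water and 7.94, 3.68, 5.62 and 5.68 under DSS. No DSS library reached a water library of its birth. It fell, with differences of -0.99 ± 0.20 (adjusted p = 0.00422) and -1.92 ± 0.19 (adjusted p = 2.97e-05).

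St3gal1, which caps core 1 with sialic acid, had the greatest rise among the members. In CON_VD it was at 1.48, 0.900, 1.02 and 1.08 FPKM and in DSS_VD at 8.55, 7.71, 18.7 and 15.3. In CS mice St3gal1 was at 1.56, 1.13, 1.36 and 0.945 in water and 15.4, 20.0, 36.6 and 24.5 under DSS. The rise was 2.6 ± 0.26 in VD mice (adjusted p = 0.000112) and 3.42 ± 0.23 in CS mice (adjusted p = 3.71e-06). Its share of the sialyltransferase FPKM was 0.461% in CON_VD, 0.527% in CON_CS, 6.50% in DSS_VD and 18.8% in DSS_CS.

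St3gal2 and St3gal4 also rose in both births, St3gal4 from 1.37 ± 0.0643 to 5.13 ± 1.80 FPKM in VD and from 1.17 ± 0.229 to 8.35 ± 0.340 in CS mice. St3gal5, which makes ganglioside GM3, and St8sia4, a polysialyltransferase, rose in CS mice. St6gal1, which caps N-glycans, and St3gal3 fell in both, and St6galnac4 in CS mice. The St3gal3 fall missed the threshold under 6 of 15 alternative fits in VD mice and 6 of 16 in CS mice. St6galnac2, under the identifier with the longer gene body, fell from 6.57 ± 0.925 to 1.55 ± 0.352 in VD and from 4.76 ± 0.671 to 2.63 ± 0.881 in CS mice. The 2 St6galnac2 identifiers share exons, so the split of reads between them is uncertain.

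Between births under DSS, 18 of 54 tested members were lower in DSS_CS than in DSS_VD (33.3%, against 5.54% of 14313 genes tested) and 4 were higher (7.41%, against 7.89%). With median-of-ratios scaling the members again numbered 4 higher and 18 lower, while all called genes went from 1130 higher and 793 lower to 791 and 885. The ranges of 24 members did not overlap (44.4%, against 22.5%). The median member difference was -0.14, against 0.06 over all genes. The 5 largest differences were those of 3 chain-extending enzymes, Fut2 and St6galnac6: B3galt5 differed by -2.13 ± 0.38 (93.2 ± 32.1 against 21.9 ± 11.8 FPKM, adjusted p = 0.0313), B3gnt7 by -2.06 ± 0.37 (adjusted p = 0.0313), Fut2 by -2.0 ± 0.42 (adjusted p = 0.0326) and B3gnt5 by -1.44 ± 0.25 (adjusted p = 0.0313). St6galnac6 differed by -1.49 ± 0.30 (adjusted p = 0.0315), with 28 to 70.7 FPKM in DSS_CS and 97.8 to 183 in DSS_VD. In the same comparison the mean of the pan-epithelial genes differed by -1.30 and that of the goblet cell genes by -1.52.

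The other lower members by role were Galnt3, Galnt4, Galnt7 and Galnt12 of the initiators, C1galt1, Gcnt1 and Gcnt3 of the core and branch enzymes, B4galt1, B4galnt3, Fut4, Fut8, St3gal6 and St6galnac4. Their differences ran from -0.52 to -1.23, with adjusted p of 0.0313 to 0.0447, and only B4galnt3 had overlapping ranges. The 4 higher members were St3gal2 (4.48 ± 1.01 in DSS_VD and 9.16 ± 2.07 FPKM in DSS_CS), St3gal5 (1.10 ± 0.190 and 2.68 ± 0.726), Galnt16 (1.04 ± 0.227 and 2.57 ± 0.301) and B4galt2 (2.26 ± 0.373 and 4.47 ± 0.963). St3gal1 was at 12.6 and 24.1 FPKM (0.91 ± 0.33, adjusted p = 0.0962) and Galnt2 at 41.4 and 62.9 (0.62 ± 0.24, adjusted p = 0.116).

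The calls between births under DSS lay close to the threshold and depended on single libraries. All 22 were lost (0 called by limma, 25 at an unadjusted p under 0.05) with the 2 DSS_CS libraries that held Pbsn left out, where the differences were of the same sign and adjusted p ran from 0.0635 to 0.193. Leaving out DSS_VD replicate 1 or DSS_CS replicate 3 alone also left 0 (30 and 27 unadjusted), and leaving out DSS_VD replicate 2 or DSS_CS replicate 2 left 1.

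**Figure D5:**
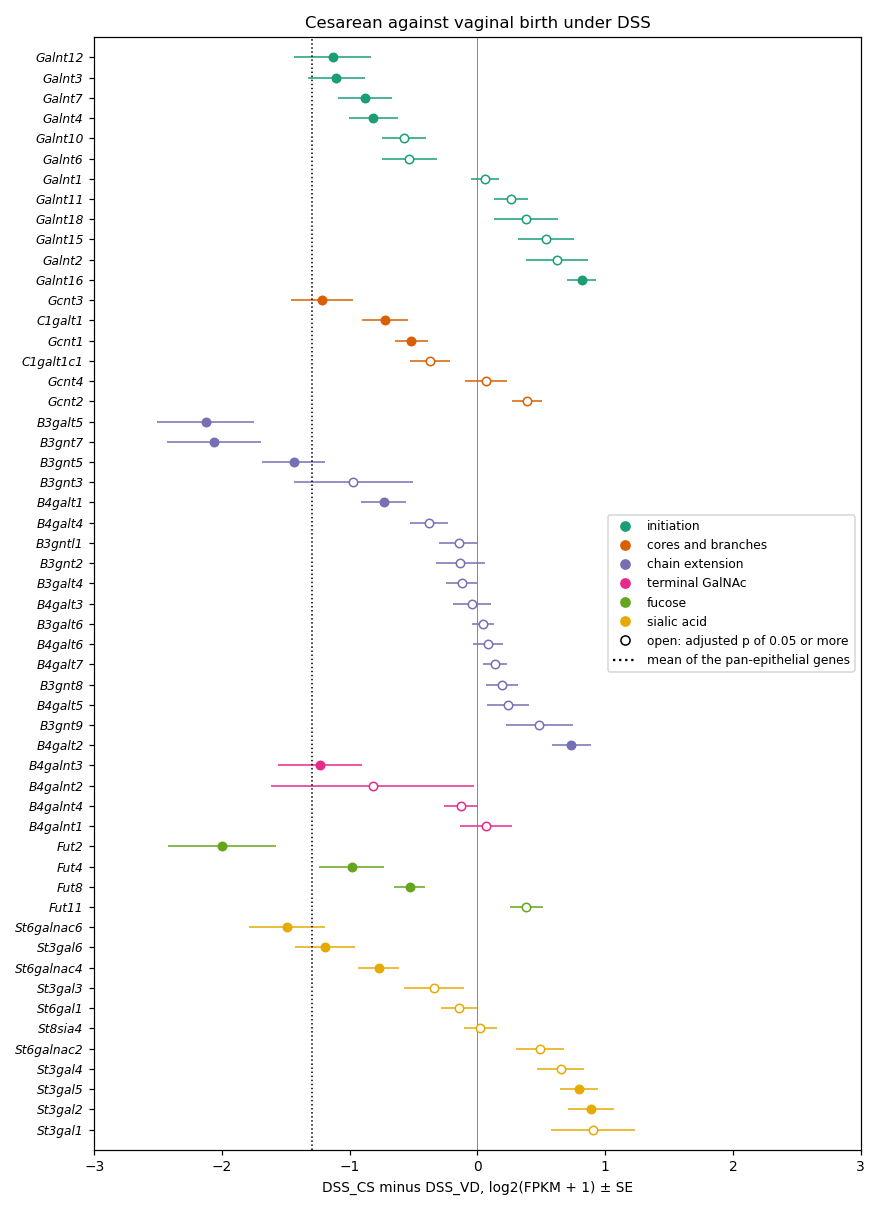
Difference between DSS_CS and DSS_VD in log2(FPKM + 1) with SE for the 54 tested members, grouped by role. Filled points have an adjusted p under 0.05, 18 to the left and 4 to the right of 0, and the dotted line is the mean difference of the pan-epithelial genes, -1.30.

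In water the births differed in 1 of 53 tested members. B3gnt5 was higher in CON_CS, by 0.86 ± 0.13 (22.5 ± 4.09 against 41.3 ± 3.86 FPKM, adjusted p = 0.0363), with 19.0 to 27.6 in CON_VD and 37.7 to 46.2 in CON_CS. That is 1.89% of the members against 0.181% of 13275 genes higher, and 0 members were lower by limma against 0.226%, while 13 members had an unadjusted p under 0.05 (24.5%, against 19.6% of all genes). Ranges did not overlap for 9 members (17%, against 10.7%): Galnt7, Galnt10, C1galt1, B3gnt5 and B4galnt3 had the higher levels in CON_CS, and B3gnt7, B4galt5, B4galnt1 and St3gal3 the lower. B3gnt5 missed the threshold under 10 of 16 alternatives, including without CON_CS replicate 1, which held Pbsn (0.90, adjusted p = 0.0846), and with CON_VD replicate 4 left out 5 members were called.

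The interaction asked whether the DSS response differed between births. A lower response here is more negative or less positive, so it can be a deeper fall. The DSS response was lower in CS mice for 20 of 59 tested members (33.9%, against 6.55% of 15233 genes) and higher for 7 (11.9%, against 6.68%). In either direction 27 members (45.8%, against 13.2%) were called. B3gnt5 had the largest interaction, -2.30 ± 0.29 (adjusted p = 0.00221), followed by B3galt5 at -2.15 ± 0.46 (adjusted p = 0.0128) and B4galnt3 at -1.86 ± 0.38 (adjusted p = 0.0118). In water the ratios of CON_CS to CON_VD means were 1.84 for B3gnt5, 0.991 for B3galt5 and 1.55 for B4galnt3. For B4galt1 (-1.12 ± 0.23, adjusted p = 0.0119) and Galnt3 (-1.18 ± 0.27, adjusted p = 0.0158), as for Fut2, the VD response was a rise and the CS response was not called. B4galt5 (0.76 ± 0.20, adjusted p = 0.0265), St3gal2, St3gal4, St3gal5, B4galt2, Galnt16 and St6galnac2 had the higher response in CS mice. For St6galnac2, called only under the identifier with the longer gene body, this was a smaller fall in CS than in VD mice. Fut9 and Galnt5 were called in the interaction and were not tested between births under DSS. B4galt5, St3gal4, St6galnac2 and Galnt10 were called in the interaction and were tested but not called between births under DSS. Their ratios of CON_CS to CON_VD means were 0.680, 0.857, 0.725 and 1.32 in that order. With the 3 Pbsn libraries left out 5 interactions were called: B3gnt5, Galnt7 and Gcnt3 lower, and B4galt2 and St3gal5 higher. The pan-epithelial genes had a lower response in CS mice too, with 5 of 10 called and a median of -1.29, and how much of the members' interaction moves with it was not tested.

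Of the genes that carry and feed these glycans more fell than rose. Over all genes tested, 17% fell and 24% rose with DSS in VD mice, and 25.9% fell and 34.4% rose in CS mice. Between births under DSS, 5.54% of all genes were lower and 7.89% higher in DSS_CS. Of 6 tested mucin genes 3 were lower in DSS_CS than in DSS_VD, 3 fell and 1 rose with DSS in VD mice, and 5 fell in CS mice. Muc13, a membrane mucin, was at 635 ± 229 and 172 ± 86.6 FPKM in DSS_VD and DSS_CS (-1.94 ± 0.39, adjusted p = 0.0313), and Muc2 at 105 ± 39.3 and 39.2 ± 13.4 (-1.40 ± 0.32, adjusted p = 0.034). Muc1 rose with DSS in VD mice, from 2.18 ± 0.798 to 6.55 ± 1.52 (adjusted p = 0.00116). Of 22 sugar donor genes, which make or transport nucleotide sugars, 15 fell and 2 rose in VD mice, 19 fell and 3 rose in CS mice, and 9 were lower and 1 higher in DSS_CS than in DSS_VD. Gfpt1, which starts hexosamine synthesis, was at 57.0 ± 13.3 in DSS_VD and 22.7 ± 6.91 in DSS_CS (adjusted p = 0.0313), while Gfpt2, the other enzyme of that step, rose in CS mice from 0.827 ± 0.0908 to 8.09 ± 2.02 (adjusted p = 3.92e-06). Gne, the first enzyme of sialic acid synthesis, fell in VD mice from 75.2 ± 10.0 to 27.6 ± 6.02 (adjusted p = 0.000283).

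Of the sulfation genes, 9 of 12 fell and 2 rose with DSS in VD mice, and 9 of 13 fell and 3 rose in CS mice. Over all genes 17% fell and 24% rose in VD mice, and 25.9% fell and 34.4% rose in CS mice. Between births under DSS 5.54% of all genes were lower and 7.89% higher in DSS_CS. Papss1, which makes the sulfate donor, went from 60.7 ± 2.51 to 21.6 ± 4.15 and from 70.1 ± 4.66 to 18.3 ± 1.16 FPKM. Chst4, which sulfates GlcNAc on mucin-like chains, was lower in DSS_CS than in DSS_VD, 3.61 ± 1.51 against 14.4 ± 3.34 (-1.79 ± 0.28, adjusted p = 0.0309), as were 5 of 13 sulfation genes in all, with 0 higher. Of the other carbohydrate transferases 4 of 14 were lower and 2 higher, with Mgat4a, which branches N-glycans, at 29.6 ± 6.41 and 13.6 ± 2.94 and B3galnt1, a globoside enzyme, at 4.84 ± 0.905 and 9.95 ± 1.37. With DSS, 5 of these rose and 2 of 14 fell in VD mice and 5 rose and 6 of 15 fell in CS mice, among the risers Ggta1, which adds the alpha-gal cap, from 2.39 ± 0.638 to 12.5 ± 3.61 in VD mice and from 1.72 ± 0.407 to 16.7 ± 1.56 in CS mice.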

How the data were processed

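RNA was extracted from colon with Trizol, per the labels' protocols, and the submitters' processing notes name cutadapt, FastQC and the genome build GRCm38, without versions. Not given in the sources used here are the aligner, the quantifier, the annotation and strandedness. The authors deposited FPKM (fragments scaled by gene length and library size) for 39328 genes in 16 libraries. No counts were used: among 12971 genes with every value under 0.3 FPKM, ratios between libraries shared 1 value in at most 0.978% of genes in the 120 pairs, so whole reads could not be recovered, and the depth is unknown. Of the identifiers, 39181 matched a symbol and 147 did not. Exons of 38 members overlap another gene, 36 of them on the opposite strand, so their reads may be shared. Overlaps on the same strand, for some members beside one on the opposite strand, were found for B3gnt2, B4galt2, Galnt2, Galnt4, St8sia3os and both St6galnac2 identifiers.

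Two-sided tests of log2(FPKM + 1) were made with limma 3.58.1 (R 4.3.3, trend option on), fitted on all genes with FPKM of at least 1 in at least 4 fitted libraries. This scale understates changes of low genes. A pair of groups was fitted with its 8 libraries alone, and the interaction with all 16. P-values were adjusted by Benjamini-Hochberg over all genes tested, with a threshold of 0.05. The fits were tested on simulated data. Alternatives were another pseudocount, no filter, a stricter filter, median-of-ratios scaling, no trend, 1 fit on all groups, a replicate block, leaving out each library and, chosen after seeing the data, leaving out libraries with Pbsn of at least 100 FPKM.

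Named members are those called in any comparison or with a group mean of at least 10 FPKM, 53 in all, and the 15 with the highest group mean are given in every library. Values of St3gal1 and B4galnt2 in every library were added after they were seen. Other genes came from 16 lists of pathway genes and cell type markers, up to 3 of smallest p per list and comparison. The members and lists were chosen with earlier results of these data known. Promoters and GRCm38 positions came from RefSeq and GENCODE. Figures were drawn with matplotlib 3.10.9.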

Additional observations from a re-analysis of the deposited data

Results flagged for a closer look

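The response to DSS differed between births, by limma's interaction test, in 27 of 59 tested members (45.8%, against 13.2% of 15233 genes), and in 5 of these without the libraries that held Pbsn. A lower response is again a more negative or less positive one. It was lower in CS mice, on log2(FPKM + 1), for B3gnt5 (-2.30, adjusted p = 0.00221), B3galt5 (-2.15, adjusted p = 0.0128), B4galnt3 (-1.86, adjusted p = 0.0118), Fut2 (-1.66, adjusted p = 0.0361), B3gnt7 (-1.66, adjusted p = 0.0193), St6galnac6 (-1.60, adjusted p = 0.0132) and Galnt7 (-1.52, adjusted p = 0.00888). Smaller differences of the same sign were found for Gcnt3 (-1.51, adjusted p = 0.0176), Galnt3 (-1.18, adjusted p = 0.0158), Galnt12 (-1.16, adjusted p = 0.0349), B4galt1 (-1.12, adjusted p = 0.0119), C1galt1 (-1.11, adjusted p = 0.0118), Galnt5 (-1.08, adjusted p = 0.0144) and Galnt10 (-0.97, adjusted p = 0.0127). The remaining members with a lower response were Galnt4 (-0.96, adjusted p = 0.0181), St3gal6 (-0.93, adjusted p = 0.0487), Fut9 (-0.83, adjusted p = 0.0467), St6galnac4 (-0.74, adjusted p = 0.0493), Gcnt1 (-0.67, adjusted p = 0.0195) and Fut8 (-0.59, adjusted p = 0.0322). A higher response in CS mice was found for St6galnac2 (0.88, adjusted p = 0.0245), St3gal5 (0.88, adjusted p = 0.0119), St3gal4 (0.78, adjusted p = 0.0293), St3gal2 (0.78, adjusted p = 0.0323), B4galt5 (0.76, adjusted p = 0.0265), B4galt2 (0.67, adjusted p = 0.0259) and Galnt16 (0.66, adjusted p = 0.0119). Besides the Fut genes given above, the St3gal6 and St6galnac4 interactions each missed the threshold under 17 of 23 alternatives. The Galnt12 interaction missed it under 12 of 23 and the St3gal2 interaction under 12 of 22.

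In 7 of 212 groups of 4 libraries 1 library stood far from the other 3 by Dixon's criterion, and chance alone flags about 1 in 20 groups. DSS_VD replicate 1 held B3gnt2 at 26.5 FPKM, against 14.2 to 15.6 in the others of its group. DSS_VD replicate 2 held Galnt12 at 24.7, against 13.5 to 14.9, and DSS_VD replicate 4 held B3gntl1 at 3.27, against 1.87 to 2.0. DSS_CS replicate 1 held B3gnt7 at 39.9, against 11.8 to 16.5, and DSS_CS replicate 4 held Fut8 at 7.88, against 5.78 to 5.93. CON_CS replicate 3 held Galnt6 at 45.1, against 25.7 to 28, and CON_VD replicate 1 held St3gal5 at 0.902, against 0.578 to 0.626.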

How the results depend on the processing

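Counts of called members are given against 22 for DSS_CS against DSS_VD, 1 for CON_CS against CON_VD, 31 and 48 for DSS in VD and CS mice and 27 for the interaction. Under DSS the births gave 0 by limma with no filter (38 at an unadjusted p under 0.05), with the replicate block (30) and without the libraries that held Pbsn (25). With 1 fit on all 4 groups the births gave 30 under DSS, 10 higher and 20 lower, while all called genes went from 1923 to 3855. Leaving out 1 library gave 0 to 24, with 0 without DSS_VD replicate 1 or DSS_CS replicate 3, 1 without DSS_VD replicate 2 or DSS_CS replicate 2, 10 without DSS_VD replicate 4 and 9 without DSS_CS replicate 4. In water, 0 were called with no filter (17 unadjusted), the block (13), 1 fit on all groups (13) or without the Pbsn library (13), and leaving out 1 library gave 0 to 5. The interaction gave 16 with no filter, 5 without the Pbsn libraries, and 16 to 27 leaving out 1 library, with 16 without CON_VD replicate 3. The DSS counts stayed within 1.5 times under every alternative run, with 25 to 37 and 41 to 45 leaving out 1 library. The cause was not tested.

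Called members kept their sign under every alternative run. Of their values under the alternatives, 182 of 348 lost the call between births under DSS, 10 of 16 in water, 29 of 443 and 22 of 719 for DSS in VD and CS mice, and 135 of 613 for the interaction. All genes called under DSS between births numbered 1923, and 3 with no filter, 2 with the block and 6 without the Pbsn libraries. Replicate numbers did not pair the libraries (correlations of same-numbered deviations from -0.247 to 0.123). With the replicate block the counts were 31 and 48 for DSS in VD and CS mice and 21 for the interaction. Read depth is unknown, so its limit on low genes cannot be given.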
